A study of Mus musculus with 9 samples.

Results

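Egress receptors are the surface proteins by which blood cells read lipid gradients and leave one tissue or take position in another, and 7 of their genes were followed here through bulk RNA-seq of pre-cDCs, the committed precursors of conventional dendritic cells. The genes were taken by symbol from the GENCODE M21 annotation: S1pr1, S1pr2, S1pr4 and S1pr5, which encode receptors for sphingosine-1-phosphate (S1P), Cd69, whose product holds S1PR1 inside the cell, Gpr183, which encodes the oxysterol receptor EBI2, and Gpr132, which encodes a receptor that senses lipids and protons. They are 7 of the 51912 genes of the count table, and all 7 passed the filter on low counts in both comparisons. The comparisons asked whether loss of DNGR-1 changes the transcripts of precursors that leave the BM, and how precursors in the spleen differ from those in the BM.

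S1P is abundant in blood and lymph and scarce within tissues, and a cell with S1PR1 on its surface follows that gradient out of a tissue. CD69 binds S1PR1 and takes it from the surface, so that activated lymphocytes stay where they are. EBI2 guides B cells, T cells and dendritic cells within the spleen along gradients of dihydroxycholesterols made by stromal cells.

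The 9 samples came from untreated mixed BM chimeras, in which irradiated BL/6 CD45.1/2 hosts received WT and DNGR-1 KO BM together. There were 3 WT and 3 DNGR-1 KO samples of BM pre-cDCs and 1 WT and 2 DNGR-1 KO samples of splenic pre-cDCs. WT cells were BL/6 CD45.1. DNGR-1 KO cells were CD45.2 and carried Clec9aCre/Cre, an allele with Cre in place of functional Clec9a, made in BL/N embryonic stem cells and backcrossed to C57BL/6J, so genotype and congenic background cannot be told apart. Each sample was a biological replicate that pooled 2 mice. With 6 mice in all, BM samples of both genotypes came from the same mice, and the splenic samples came from mice among them. Which replicate numbers share a pool is not stated. WT samples are labelled CD45.1 in their tissue field but CD45.2 in their description.

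Libraries held 17103806 to 23722298 expected counts. Clec9a, the gene of DNGR-1, had 905 to 2459 counts in the 4 WT samples and 0 or 1 in the 5 DNGR-1 KO samples. All 8 markers fixed for dendritic cells and their precursors (Flt3, Itgax, Zbtb46, Irf8, Batf3, Id2, Sirpa and Cd24a) exceeded 3 counts in every sample. They summed to 3071 to 5181 CPM in BM. In spleen they summed to 2583 CPM in WT and to 4469 and 1975 CPM in DNGR-1 KO replicates 1 and 2. The sum in splenic DNGR-1 KO replicate 2 was below that of the T cell markers in the same sample. The splenic samples stood apart in other ways too. The 7 T cell markers summed to 0.120 to 4.07 CPM in BM and to 749, 968 and 2523 CPM in WT, DNGR-1 KO replicate 1 and DNGR-1 KO replicate 2 of the spleen, although the study's gate removes cells stained for markers that include CD3, B220, NK1.1, Ly6G and Ter119. The 8 NK cell markers summed to 0.156 to 1.57 CPM in BM and to 63.9, 221 and 541 CPM in the same 3 splenic samples. Haemoglobin genes took 0.850% to 4.66% of the splenic counts and at most 0.0287% of those of a BM sample, and the 7 neutrophil markers summed to 839 to 2630 CPM in BM and at most 0.977 CPM in spleen. The 7 monocyte and macrophage markers summed to 1981 to 3754 CPM in BM and 2378 to 3554 CPM in spleen. In bulk samples, fewer cells of a type and less RNA per cell cannot be told apart.

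All 7 genes lie on the minus strand of GRCm38. S1pr2 (chr9:20962361-20976781) and S1pr5 (chr9:21242912-21248443) are neighbours at a distance of 266.1 kb. S1pr1 lies at chr3:115710433-115715072, S1pr4 at chr10:81497747-81500132, Gpr183 at chr14:121952551-121965195 and Gpr132 at chr12:112850873-112868228. S1pr4 is annotated as a single transcript with 1 exon, and Gpr132, S1pr5 and Cd69 have 3, 3 and 5 exons in their longest coding transcript.

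In the BM the transcripts of S1pr4 and Gpr183 were plentiful and those of the other 5 receptors were sparse. Divided by the length of merged exons, S1pr4 stood at 76.7 ± 7.49 CPM per kb (SD, n = 6) and Gpr183 at 51.5 ± 9.37, and within each genotype the samples of these 2 genes did not overlap, although the lowest S1pr4 value of all 6 samples (65.8) was below the highest Gpr183 value (67.8). S1pr2 (2.17 ± 0.580), Gpr132 (2.0 ± 0.593) and Cd69 (1.55 ± 0.403) followed in CPM per kb and overlapped one another. S1pr1 (0.672 ± 0.377) and S1pr5 (0.238 ± 0.234) had the lowest means and overlapped each other. The highest S1pr1 value of all 6 samples (1.15) was above the lowest values of Cd69 (0.862) and Gpr132 (1.04).

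The order was different in the spleen. Gpr183 led with 107 ± 15.9 CPM per kb (SD, n = 3), above every splenic value of S1pr4, the next gene with 63.8 ± 12.0. S1pr1 came to 45.3 ± 44.8 CPM per kb, a mean over samples at 12.2, 27.4 and 96.2, and its range overlapped that of every other gene except S1pr2. Cd69 (13 ± 6.62), S1pr5 (12.2 ± 11.3) and Gpr132 (9.33 ± 4.18) could not be ordered beyond their spread. S1pr2 was the lowest with 1.88 ± 0.754 CPM per kb, and none of its samples reached the lowest sample of Gpr132. The place of Cd69 depends on the length used, because its merged exons span 6509 bases and its longest coding transcript 1687 bases: per coding transcript it ranked next after the leading pair in BM and in spleen, at 5.96 CPM per kb in BM and 50.1 in spleen.

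**Figure D1:**
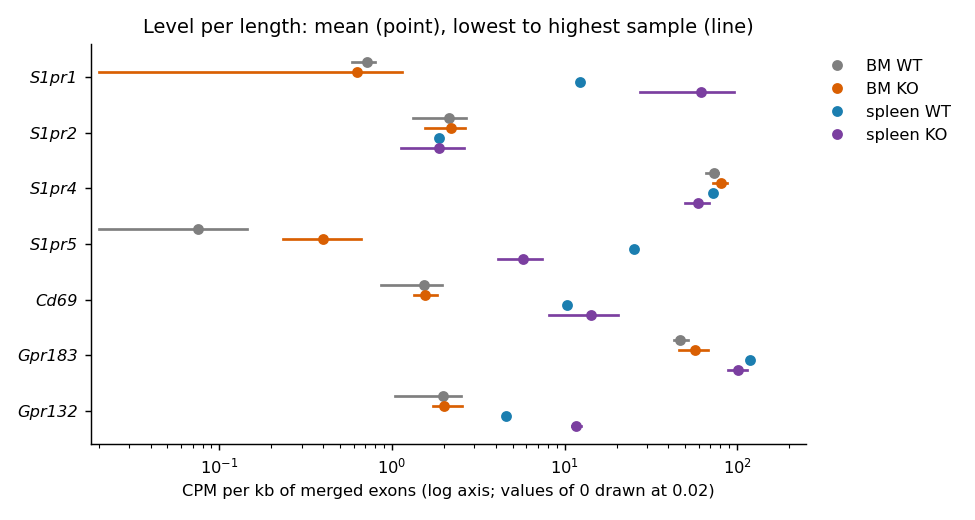
CPM per kb of merged exons on a log axis for the 7 genes, with the mean of each group as a point and its lowest to highest sample as a line (BM WT and KO n = 3, spleen WT n = 1, spleen KO n = 2). S1pr4 and Gpr183 sit highest in BM, and S1pr1, S1pr5, Cd69 and Gpr132 lie further right in spleen than in BM.

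No difference between genotypes was detected in these transcripts in the BM. None of the 7 genes passed an adjusted p of 0.05 (edgeR, quasi-likelihood F test with p adjusted by Benjamini-Hochberg, 3 samples a genotype), and none had an unadjusted p under 0.05, against a background of 0.0307% of 13016 genes called and 3.83% under the unadjusted threshold. The median log2 fold change of the 7 was 0.03, against -0.00447 over all genes tested. For S1pr5 alone every DNGR-1 KO sample exceeded every WT sample, a separation in that direction seen in 4.79% of genes (4.75% in the other direction and 9.53% in either).

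S1pr1, the receptor that carries lymphocytes out of tissues, had 1.80, 2.44 and 2.29 CPM in WT replicates 1 to 3 and 3.49, 0 and 2.26 CPM in DNGR-1 KO replicates 1 to 3. DNGR-1 KO replicate 2 was listed at 0 counts, where 3 counts would be 0.146 CPM, and the other 5 BM samples had 30 to 78 counts. The groups overlapped, and the fitted log2 fold change was -0.18 (SE 1.09, adjusted p = 0.981). Without DNGR-1 KO replicate 2 it was 0.41 (adjusted p = 0.9999), so the sign rests on that sample.

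S1pr2, whose product couples to G12/13 and holds cells back from S1P, had 10.5, 21.3 and 19.6 CPM in WT and 18.8, 21 and 12.4 CPM in DNGR-1 KO. S1pr4, a receptor largely restricted to blood cells, had 182, 157 and 184 CPM in WT and 173, 209 and 194 CPM in DNGR-1 KO. Both genes overlapped between genotypes, with log2 fold changes of 0.02 (SE 0.34) and 0.14 (SE 0.20).

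S1pr5, known from the exit of NK cells and patrolling monocytes, was at the edge of detection, with 6, 0 and 4 counts in WT and 17, 12 and 33 counts in DNGR-1 KO. In CPM these are 0.359, 0 and 0.204 against 0.761, 0.586 and 1.66. The log2 fold change was 2.39 (SE 1.12), with p = 0.0586 before and 0.861 after adjustment over all genes, and the two-sided exact permutation p was 0.1, the lowest that 6 samples split evenly can give.

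Cd69 had 11.5, 5.61 and 12.8 CPM in WT and 11.9, 8.78 and 9.78 CPM in DNGR-1 KO, a log2 fold change of 0.03 (SE 0.37). Its position matters for this comparison, since Cd69 (chr6:129267325-129275436, minus strand, GRCm38) lies 133.4 kb from Clec9a, the gene that was altered. Of 21 genes tested within 500 kb of Cd69, 2 were called between genotypes, Clec9a and Clec7a, and Cd69 was not (adjusted p = 0.990).

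Gpr183 had 150, 124 and 129 CPM in WT and 133, 196 and 162 CPM in DNGR-1 KO, with overlapping ranges and a log2 fold change of 0.28 (SE 0.23, adjusted p = 0.861). Gpr132 had 2.81, 6.86 and 6.46 CPM in WT and 4.70, 6.88 and 4.82 CPM in DNGR-1 KO, again overlapping, with a log2 fold change of 0.02 (SE 0.45). With counts simulated on this layout, 193 of 12629 genes were given a log2 change of 2. Of these 68.9% were found, and 91.5% of those above 10 CPM. The BM fit called 4 of 13016 genes, and with fewer changed genes the adjusted threshold is stricter than in the simulation. Clec7a, with a log2 fold change of 2.69 (SE 0.34), passed it at an adjusted p of 0.0437 in edgeR. A change of 2 could thus have been missed in the sparse receptors and was not sure to be found above 10 CPM.

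**Figure D2:**
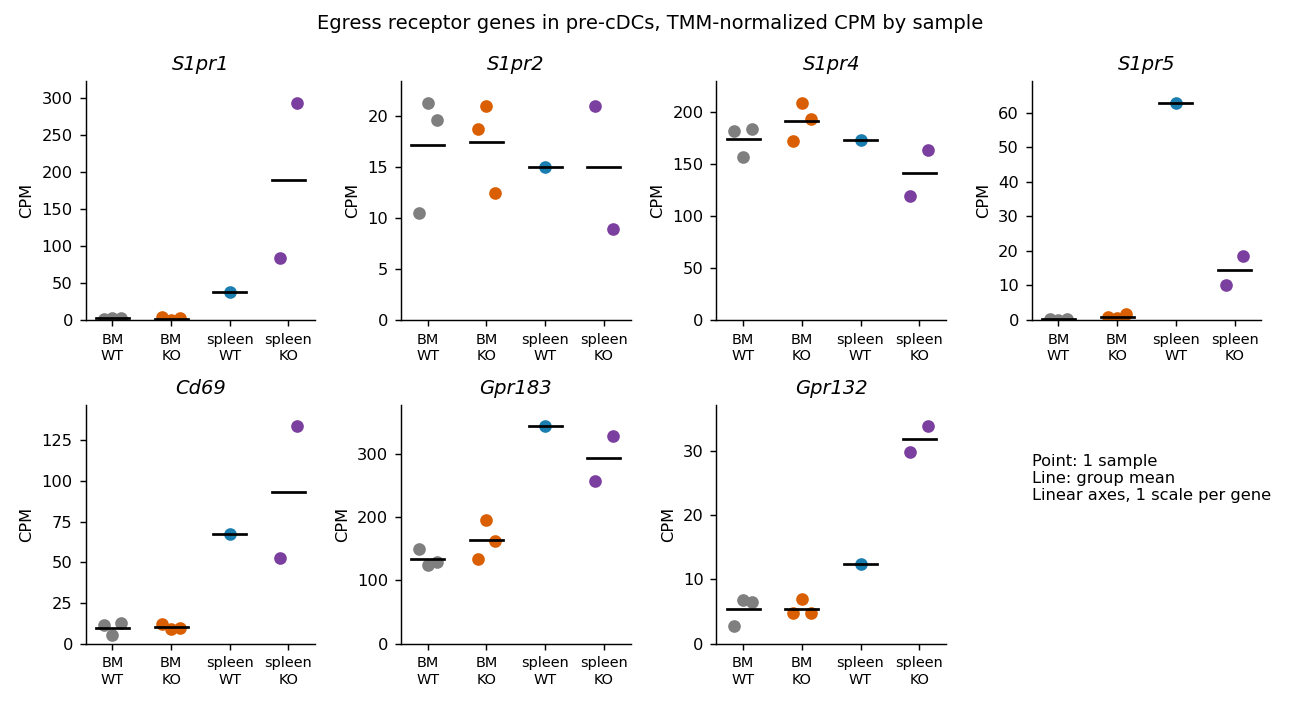
TMM-normalized CPM of the 7 genes on linear axes from 0, 1 point per sample and a line at the group mean. The BM genotypes overlap for 6 genes, and the 3 splenic samples lie above all 6 BM samples for S1pr1, S1pr5, Cd69, Gpr183 and Gpr132.

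Most of the receptor genes differed between tissues. Of the 7 genes, 5 were higher in splenic than in BM pre-cDCs and 0 were lower at an adjusted p under 0.05 (edgeR, 3 against 6 samples with genotype as a covariate), against 7.28% of 13468 genes higher, 12.3% lower and 19.5% called in either direction. The same 5 genes had every splenic sample above every BM sample, as 9.15% of genes did. Their two-sided exact permutation p was 0.0119, which is the smallest that 3 against 6 samples allow. The permutation and this fit treat the 9 samples as independent, although samples shared mice. With the replicate number as a block, Cd69 and Gpr183 kept their calls, and S1pr1 (adjusted p = 0.0541), S1pr5 (0.0622) and Gpr132 (0.0880) missed the threshold in edgeR. The median log2 fold change of the 7 genes was 2.08, against -0.18 over all genes tested.

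Among the S1P receptors, S1pr1 rose from 2.05 ± 1.15 CPM in BM (SD, n = 6) to 37.2, 83.6 and 293 CPM in the splenic WT, DNGR-1 KO replicate 1 and DNGR-1 KO replicate 2 samples. The log2 fold change was 5.84 (SE 1.03, adjusted p = 0.00465). Its splenic order was that of the T cell and NK cell marker sums given above, and their part in the rise was not tested. Leaving out splenic DNGR-1 KO replicate 2, the sample with the highest sums of both lists, gave 4.84 (adjusted p = 0.0112), and leaving out the WT sample gave 6.61 (adjusted p = 0.00769).

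S1pr5 rose from at most 1.66 CPM in BM to 62.9 CPM in splenic WT cells, and DNGR-1 KO replicates 1 and 2 of the spleen had 10.2 and 18.5 CPM, with a log2 fold change of 6.02 (SE 1.2, adjusted p = 0.00763). Its splenic order differed from that of the T cell and NK cell marker sums, since the WT sample was highest in S1pr5 and lowest in both sums. It was the order of the monocyte and macrophage sum, at 3554, 2378 and 3215 CPM in WT and DNGR-1 KO replicates 1 and 2. The sum of the 6 B cell markers had that order too, at 1001, 725 and 944 CPM. Both sums overlapped between spleen and BM, and their part was not tested. The monocyte list was mixed in spleen. Adgre1 was highest in WT, at 124 CPM against at most 69.7 in DNGR-1 KO, and Ly6c2 was lowest in WT, at 619 CPM against at least 820. The B cell list was mixed too, and its sum was mostly Ighm, at 964 CPM in WT and 678 to 909 CPM in DNGR-1 KO. Ms4a1 went the other way, with 0 counts in WT and 213 to 222 in DNGR-1 KO. Without the splenic WT sample the log2 fold change of S1pr5 was 3.83 (adjusted p = 0.0429), and without splenic DNGR-1 KO replicate 1 or 2 it was 6.88 or 6.73. The annotation places 51 exon bases of the opposite-strand transcript Gm48303 within exons of S1pr5.

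S1pr2 and S1pr4 did not pass the test between tissues. S1pr2 spanned 10.5 to 21.3 CPM in BM and had 15, 21 and 8.96 CPM in spleen, a log2 fold change of -0.21 (SE 0.44, adjusted p = 0.802). S1pr4 spanned 157 to 209 CPM in BM and had 173, 120 and 164 CPM in spleen, a log2 fold change of -0.27 (SE 0.18, adjusted p = 0.356). Within the family, S1pr1 and S1pr5 were higher in spleen, and the ranges of S1pr2 and S1pr4 overlapped between tissues. With counts simulated for the tissue fit, 194 of 12993 genes were given a log2 change of 2. Of these 35.6% were found, and 51.1% of those above 10 CPM. A gene that was not called between tissues is thus not shown to be unchanged.

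The remaining receptor gene of the family, S1pr3, went the opposite way. It had 178 to 854 counts in BM and 0, 0 and 1 in the splenic samples (adjusted p = 0.000154 in edgeR). Against a limit of 3 counts per library, spleen was at least 158-fold under the BM mean and 59.6-fold under the lowest BM sample.

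Cd69 rose from 5.61 to 12.8 CPM in BM to 67.2, 52.7 and 134 CPM in the splenic WT and DNGR-1 KO replicates 1 and 2. The log2 fold change was 3.03 (SE 0.38, adjusted p = 0.000935), the smallest adjusted p of the 7 genes. The lowest splenic sample stood above the highest BM sample. Transcripts of S1pr1 and Cd69, whose products act against each other at the cell surface, were thus both higher in the bulk splenic samples. Cd69 was highest in splenic DNGR-1 KO replicate 2, the sample with the highest T cell and NK cell marker sums, although WT exceeded DNGR-1 KO replicate 1. The part of those cells in the rise was not tested.

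Gpr183 rose by a smaller factor from a high base, from 124 to 196 CPM in BM to 343, 257 and 328 CPM in spleen, a log2 fold change of 1.05 (SE 0.19, adjusted p = 0.00531). The gene lies within the body of Ubac2 on the opposite strand and shares 0 exon bases with it. Over the DNGR-1 KO samples alone the log2 fold change was 0.83 (adjusted p = 0.0843).

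Gpr132 rose from 2.81 to 6.88 CPM in BM to 12.4, 29.8 and 33.8 CPM in spleen, a log2 fold change of 2.08 (SE 0.50, adjusted p = 0.0183). Both DNGR-1 KO samples lay above the WT sample, which itself lay above all BM samples, in the order of the T cell and NK cell marker sums, whose part was not tested. The call ended without BM DNGR-1 KO replicate 1 (1.97, adjusted p = 0.0581) or 3 (1.96, adjusted p = 0.0543).

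**Figure D3:**
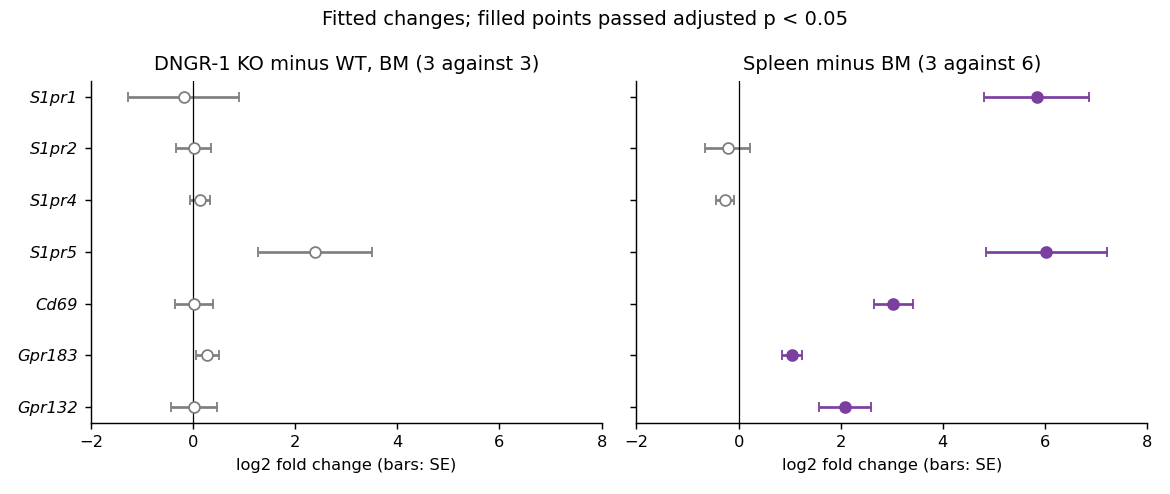
Fitted log2 fold changes with standard errors from edgeR for DNGR-1 KO minus WT in BM (left) and spleen minus BM (right), filled where the adjusted p passed 0.05. No gene is filled on the left, and S1pr1, S1pr5, Cd69, Gpr183 and Gpr132 are filled on the right.

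**Figure D4:**
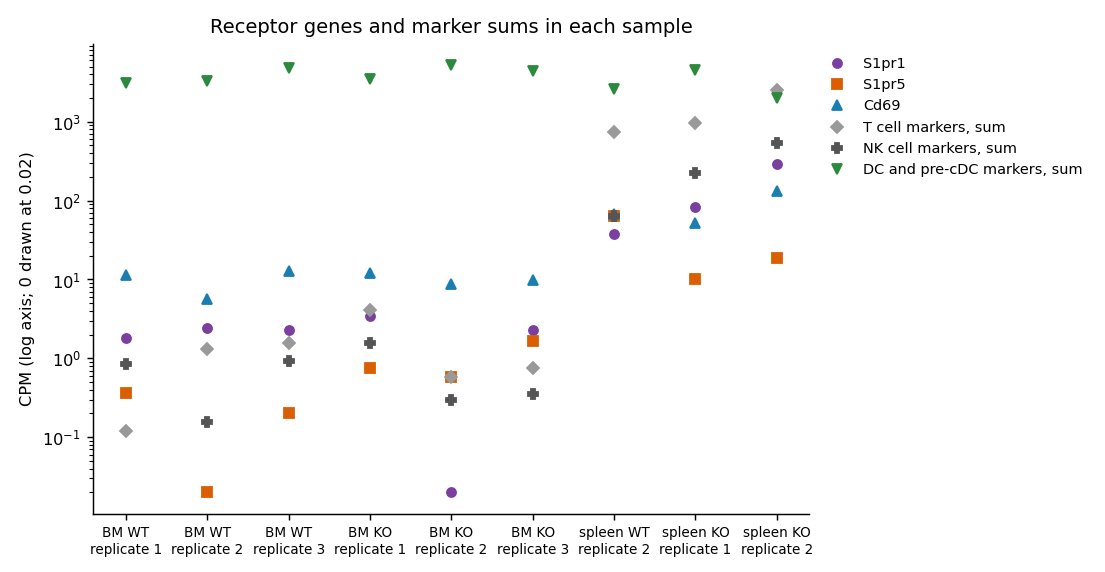
CPM of S1pr1, S1pr5 and Cd69 and the summed CPM of the T cell, NK cell and dendritic cell marker lists in each of the 9 samples, on a log axis. S1pr1 and both lymphocyte sums are highest in splenic KO replicate 2, and S1pr5 is highest in the splenic WT sample.

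The promoters of genes that rose and of one that did not were read side by side, to show what precedes their starts. RefSeq promoter windows (GRCm38.p6) were found for 5 of the 7 genes, S1pr2, S1pr4, S1pr5, Gpr183 and Gpr132. S1pr5 and Gpr183 are shown as genes higher in spleen and S1pr4 as the abundant gene not called. They cover the 250 bases before the start of S1pr5 (chr9:21248444-21248693), Gpr183 (chr14:121965194-121965443) and S1pr4 (chr10:81500138-81500387), all read 5′ to 3′ on the minus strand. Capitals mark CACCC (a box bound by KLF factors) and CAGGTG (an E-box bound by ZEB factors) on either strand.
S1pr5: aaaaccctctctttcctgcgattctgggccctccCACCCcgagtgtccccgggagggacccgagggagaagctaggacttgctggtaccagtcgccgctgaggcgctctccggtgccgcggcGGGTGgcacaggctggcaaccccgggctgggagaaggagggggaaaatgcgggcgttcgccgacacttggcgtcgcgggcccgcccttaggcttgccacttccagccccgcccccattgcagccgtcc
Gpr183: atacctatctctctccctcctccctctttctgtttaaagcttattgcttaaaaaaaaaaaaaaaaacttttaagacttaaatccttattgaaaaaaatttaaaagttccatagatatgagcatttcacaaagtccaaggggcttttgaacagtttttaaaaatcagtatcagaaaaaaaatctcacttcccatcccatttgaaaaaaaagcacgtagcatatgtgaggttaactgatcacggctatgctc
S1pr4: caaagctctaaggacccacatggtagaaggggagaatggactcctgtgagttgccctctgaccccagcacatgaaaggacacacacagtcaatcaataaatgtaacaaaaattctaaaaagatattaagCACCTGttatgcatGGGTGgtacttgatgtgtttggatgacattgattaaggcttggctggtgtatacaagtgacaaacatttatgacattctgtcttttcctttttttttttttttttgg

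The windows differed in composition, with G and C making up 69.2% of S1pr5, 32.0% of Gpr183 and 38.8% of S1pr4. CACCC matched 2 times in S1pr5, 1 time in S1pr4 and 0 times in Gpr183, and it was present in 52.0% of 32851 promoter windows of the same length. CAGGTG matched 1 time in S1pr4, 0 times in S1pr5 and Gpr183, and in 17.2% of all windows. In the windows not shown, CACCC matched 1 time each in S1pr2 and Gpr132, and CAGGTG matched 1 time in S1pr2 and 0 times in Gpr132. The T-box letters GGTGTGA (3.33% of windows) and the FOXO letters GTAAACA (3.17% of windows) were searched on both strands too and matched in none of the 5 windows. No searched motif contains another, and a match describes letters only.

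The 2 splenic genotypes can be set side by side but not tested, because WT has 1 sample. Of the 7 genes, S1pr1 and Gpr132 were at more than 2 times the WT level in both DNGR-1 KO samples, as were 15.1% of genes. S1pr1 was 2.25 and 7.88 times WT, and Gpr132 was 2.40 and 2.72 times WT. S1pr5 was below WT by more than 2 times in both, as were 7.69% of genes, with WT 6.15 and 3.41 times as high as DNGR-1 KO replicates 1 and 2.

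The other 4 genes did not differ by that much. Cd69 was 0.785 and 1.99 times WT, S1pr2 was 1.40 and 0.599 times WT, S1pr4 was 0.690 and 0.946 times WT, and Gpr183 was 0.750 and 0.956 times WT in DNGR-1 KO replicates 1 and 2. The T cell, NK cell and erythroid marker sums were also higher in both DNGR-1 KO samples than in WT, the erythroid sum being 5125 CPM in WT and 30824 and 9720 CPM in DNGR-1 KO, and their part in these values was not tested.

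Of 14 genes for enzymes and transporters of S1P, 10 were tested between tissues, 0 were higher, 4 were lower in spleen and 6 did not pass, where 7.28% of all genes were higher and 12.3% lower. The median log2 fold change of the 10 was -0.43, against -0.18 over all genes tested. Sphk1, the kinase that makes S1P, had 316 to 4931 counts in BM and 0, 0 and 2 in spleen (adjusted p = 0.000689 in edgeR). Against a limit of 3 counts per library, spleen was at least 840-fold under the BM mean and 86.2-fold under the lowest BM sample. Mfsd2b, the S1P exporter of red cells and platelets, had 210 to 3532 counts in BM and 0, 0 and 1 in spleen. By the same limit it was at least 592-fold under the BM mean and 57.3-fold under the lowest BM sample. Spns2, the exporter of endothelium, had 25 to 177 counts in BM and 0 in all 3 splenic samples, at least 24.1-fold under the BM mean and 6.82-fold under the lowest BM sample.

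In BM, Sphk1 had 4931, 4310 and 2793 counts in WT and 4051, 316 and 862 in DNGR-1 KO, and Mfsd2b had 2357, 3192 and 2667 in WT and 3532, 210 and 482 in DNGR-1 KO. Both genes were lowest in DNGR-1 KO replicates 2 and 3, without passing the test between genotypes (log2 fold changes of -1.46 and -1.20, adjusted p = 0.861 for each). Without DNGR-1 KO replicate 1 the values were -2.91 for Sphk1 (adjusted p = 0.0915) and -3.10 for Mfsd2b (adjusted p = 0.0385).

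The 4 erythroid markers were mixed beside these 2 genes, and their part was not tested. Klf1, an erythroid transcription factor, had 5625, 4153 and 2722 counts in BM WT, 3835, 233 and 833 in BM DNGR-1 KO and 0, 5 and 2 in spleen, so it too was lowest in DNGR-1 KO replicates 2 and 3 of the BM. The haemoglobin genes Hba-a1 and Hbb-bs were not, with 1727 and 1901 counts in DNGR-1 KO replicate 3, their highest in BM. The whole list summed to 80.2 to 499 CPM in BM and 5125 to 30824 CPM in spleen, opposite to the fall of Sphk1 and Mfsd2b between tissues. The 3 platelet markers summed to 6.20 to 61.2 CPM in BM and at most 0.0425 CPM in spleen.

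Plpp2, a lipid phosphatase, fell by 1.74 on the log2 scale (SE 0.49, adjusted p = 0.0364), and it kept the call in 3 of the 9 fits that left out 1 sample. Sphk2, the second S1P kinase, and Sgpl1, the lyase that destroys S1P, did not pass, with log2 fold changes of -0.21 (SE 0.31) and -0.30 (SE 0.43).

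Enzymes of oxysterol ligands for EBI2 were few. Of 4 genes 3 were tested and 1 was higher in spleen, where 7.28% of all genes were higher. Cyp27a1, a sterol hydroxylase, rose from 66.3 to 180 CPM, a log2 fold change of 1.44 (SE 0.32, adjusted p = 0.0134). It kept its call in 8 of the 9 fits that left out 1 sample and in 6 of 8 other alternatives. Its splenic DNGR-1 KO replicate 2 sample, at 89.8 CPM, lay below the highest BM sample, at 99.7 CPM. Cyp7b1 did not pass (adjusted p = 0.0978), with 320 and 454 counts in the splenic DNGR-1 KO samples against 0 in WT. Ch25h was too low to be tested.

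Of 22 genes of G protein signalling and receptor desensitisation, 20 were tested, 4 were higher in spleen and 0 were lower. Of all genes 7.28% were higher and 12.3% lower. The median log2 fold change of the 20 was 0.24, against -0.18 over all genes tested. The 4 were Rgs1 (2.25, SE 0.69), Rgs14 (1.55, SE 0.30), Rgs2 (1.20, SE 0.32), which all code for regulators that speed up the shutdown of G proteins, and Arrb2 (1.11, SE 0.29), which codes for an arrestin. Rgs14 kept its call in all 9 fits that left out 1 sample, and Arrb2, Rgs2 and Rgs1 kept it in 4, 3 and 2 of them. Of 8 other alternatives, Rgs14 kept it in 7, and Arrb2, Rgs2 and Rgs1 in 6 each. The G protein subunit genes Gnai2, Gna13 and Gnas and the kinase gene Grk2 had log2 fold changes of -0.10, 0.35, 0.37 and -0.05 and did not pass.

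Of 6 genes for transcription factors known to act on the receptor genes, 4 were tested and 2 were higher in spleen, as were 7.28% of all genes. Klf2, the activator of S1pr1 in T cells, rose from 2.42 to 7.48 CPM in BM to 28.4, 16.8 and 41.4 CPM in spleen, a log2 fold change of 2.54 (SE 0.49, adjusted p = 0.00709). Klf2 kept its call in all 9 fits that left out 1 sample and in 7 of 8 other alternatives. Tbx21, the T-bet gene and an activator of S1pr5 in NK cells, rose by a log2 value of 3.09 (SE 0.85, adjusted p = 0.0321). Tbx21 had 6.92, 10.9 and 38.3 CPM in the splenic WT and DNGR-1 KO replicates 1 and 2, the order of the T cell and NK cell marker sums, whose part was not tested. Tbx21 kept its call in 3 of the 9 fits that left out 1 sample, and without splenic DNGR-1 KO replicate 2 the value was 2.08 (adjusted p = 0.0648). Foxo1 (adjusted p = 0.208) and Zeb2 (adjusted p = 0.674) did not pass.

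Of 13 related receptors for lipids and protons, 9 were tested, 4 were higher in spleen and S1pr3 was lower. Of all genes 7.28% were higher and 12.3% lower. The median log2 fold change of the 9 was 1.83, against -0.18 over all genes tested. Gpr18, a neighbour of Gpr183 at 36.8 kb, rose from 24.4 to 39.2 CPM in BM to 222, 119 and 193 CPM in spleen, a log2 fold change of 2.51 (SE 0.25, adjusted p = 0.000292). Gpr65 (1.54, SE 0.35), a proton sensor, and Lpar6 (1.48, SE 0.31), a lysophosphatidic acid receptor, rose as well. Gpr65 kept its call in 7 and Lpar6 in all of the 9 fits that left out 1 sample, and both missed it in the DNGR-1 KO samples alone (adjusted p = 0.174 and 0.0897) and with the replicate block (0.0797 and 0.0581). Gpr34, a lysophosphatidylserine receptor, rose by a log2 value of 3.61 (SE 0.996, adjusted p = 0.0327), and kept the call in 3 of the 9 such fits. Without splenic DNGR-1 KO replicate 1 the value was 2.48 (adjusted p = 0.136).

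In BM none of the 45 tested genes in these 5 lists passed the adjusted threshold between genotypes. Under an unadjusted p of 0.05 there were 2, or 4.44%, near the 3.83% of all genes. They were Asah1, an acid ceramidase (log2 fold change 0.73, SE 0.30), and Rgs18 (0.65, SE 0.25), both with an adjusted p of 0.861 in edgeR.

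**Figure D5:**
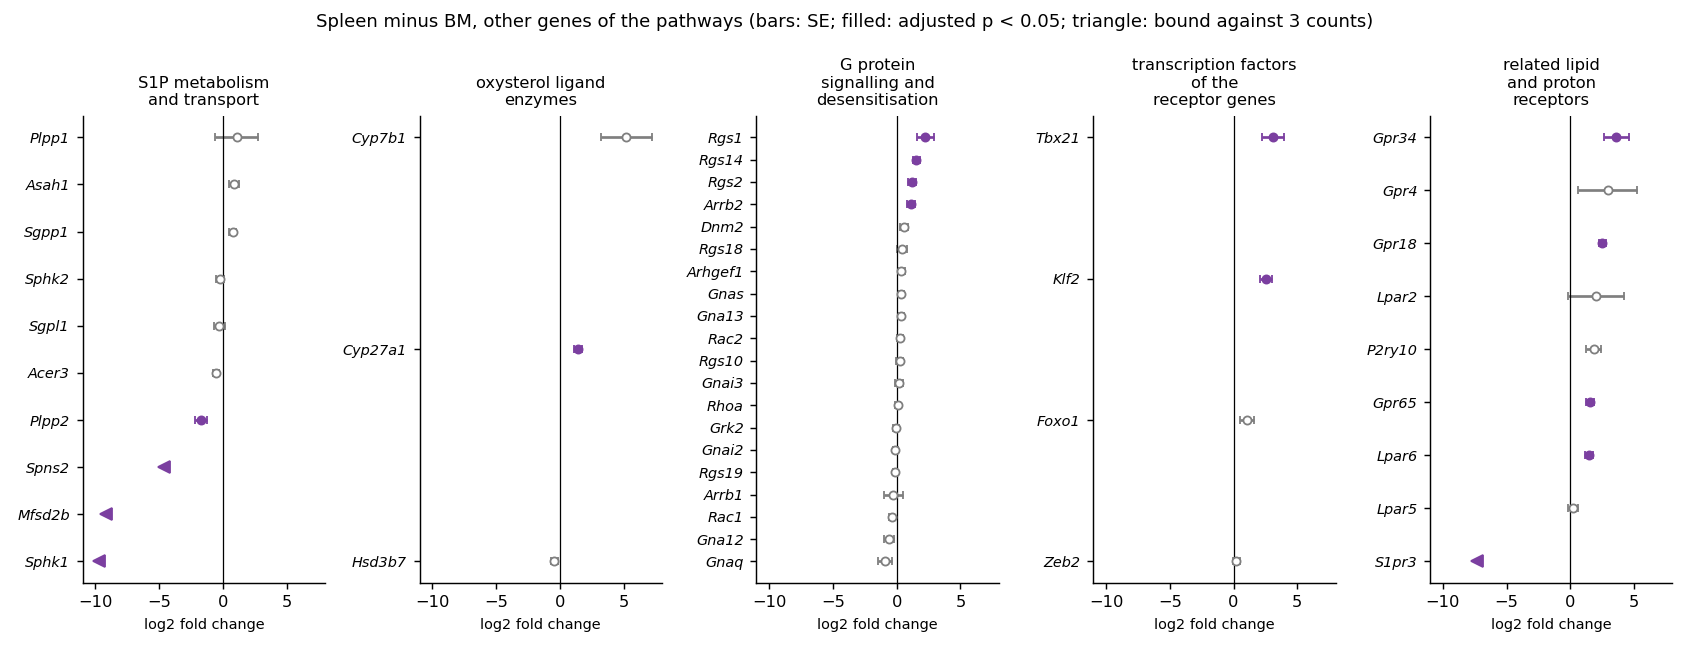
Log2 fold changes of spleen minus BM from edgeR for the tested genes of 5 lists, with standard errors, filled where the adjusted p passed 0.05. Triangles mark Sphk1, Mfsd2b, Spns2 and S1pr3 at their bound against 3 counts, since all 3 splenic samples held at most 2 counts.

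Genes with the most similar profile were found by the root mean square distance of centred log2 CPM over the 9 samples. The nearest to S1pr1 were Ctla2a, Gimap6 and Gimap5, at 0.95, 0.95 and 0.99. The nearest to S1pr5 was Fabp4, at 0.48, with 13, 0 and 3 counts in BM WT, 12, 16 and 41 in BM DNGR-1 KO, 1538 in splenic WT and 198 and 267 in splenic DNGR-1 KO, followed by Klra3 and Fcgr4.

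Stat4, Hcst and Fyb lay nearest to Cd69, from 0.35 to 0.40, and Adgrg5, Clcf1 and Fbxl12 nearest to Gpr132, from 0.29 to 0.32. Vsir, Fxyd5 and Mvd followed Gpr183 within 0.13. Pan2, Srek1 and Impa1 lay nearest to S1pr4, at 0.10, and Senp1, Ptcd1 and Aff1 nearest to S1pr2, from 0.09 to 0.17. All these genes were picked for a like profile, so the likeness itself is no result.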

How the data were processed

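The 7 genes and the lists were chosen with earlier results of these data known. The authors deposited unnormalized expected counts of 51912 genes (25.6% of values above 0 carry a fraction); the submitters' processing notes name Trimmomatic 0.36, STAR 2.5.2, RSEM 1.3.0, DESeq2 1.18.1 and the build GRCm38. A deposited table of variance stabilized values on a log2 scale (20810 genes) was used only as an alternative. Ribosomal RNA was depleted from total RNA, and whether counting used strand is not given in the sources used here. Since the planned tests assumed raw counts, expected counts were first rounded.

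Tests were run in R 4.3.3 with edgeR 4.0.16 (TMM, filterByExpr, quasi-likelihood, Benjamini-Hochberg, threshold 0.05): BM genotypes over the 6 BM samples, tissues over the 9 samples together, genotype being a covariate. Standard errors came from the F statistic. DESeq2 1.42.0 and limma 3.58.1 were alternatives. CPM values are scaled by TMM, and log2 CPM uses a prior count of 2. A count of 3 equals 0.127 to 0.180 CPM, and limits and folds cover counting error only. Scripts were tested on simulated counts. GENCODE M21 symbols matched 51719 of 51912 identifiers. Replicates were not the same library deposited more than once (chi-square per gene 28.9 to 257). The named genes are the 7, Clec9a, list genes past the threshold or needed to say what a list holds, and the 3 nearest genes by profile; Klf1, Hba-a1, Hbb-bs and Clec7a were named after their values were seen, and 3 genes of the planned lists are not reported here.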

Additional observations from a re-analysis of the deposited data

Results flagged for a closer look

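S1pr1 in BM DNGR-1 KO replicate 2 stood far from the other 5 BM samples: it was listed at 0 counts, and its gap to the nearest sample was 0.821 of the whole range in log2 CPM, above Dixon's critical value for 6 samples. Chance places about 1 in 20 groups above that value.

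S1pr5 moved in opposite directions with genotype in the 2 tissues, higher in all 3 DNGR-1 KO samples of BM (a difference of mean log2 CPM of 2.06) and lower in both DNGR-1 KO samples of spleen (-2.19). The 2 differences are 4.25 apart on the log2 scale. This was not tested, the splenic value rests on 1 WT sample, and the BM samples held 0 to 33 counts.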

How the results depend on the processing

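Between BM genotypes 4 genes were called, 11 with DESeq2, 10 without a filter on low counts and 2 to 15 when 1 sample was left out; none of the 7 receptor genes was called in any of these. S1pr2, at 0.02, turned to -0.0456 with the congenic score as a covariate. With 1 sample left out, the log2 fold change ranged from -0.95 to 0.41 for S1pr1, -0.23 to 0.21 for S1pr2, -0.26 to 0.25 for Cd69 and -0.28 to 0.23 for Gpr132, crossing 0. Between tissues 2631 genes were called, 1336 in the DNGR-1 KO samples alone and 1848 to 3187 with 1 sample left out, and S1pr2 ranged from -0.54 to 0.0419. The cause of these shifts was not tested, and the fits that left samples out also had fewer samples.

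Cd69 kept its call between tissues in every alternative run. The replicate number as a block gave 1246 calls between tissues and 4 between BM genotypes; with it the adjusted p was 0.0541 for S1pr1, 0.0622 for S1pr5 and 0.0880 for Gpr132. The replicate numbers are not stated to pair samples, so they were not taken as pairs although the mice were shared. Same-numbered BM samples had deviations correlated at 0.103, 0.0990 and -0.0815, and WT and DNGR-1 KO samples of unlike number from -0.249 to 0.194. So few values cannot decide whether the numbers pair samples. On the deposited log2-scale values the differences between tissues shrank to 2.40 for S1pr1, 1.41 for S1pr5, 1.58 for Cd69 and 0.78 for Gpr132, all past the threshold. Sparse counts of S1pr1 and S1pr5 in BM limit what could be seen between genotypes.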
